A study of Homo sapiens with 12 samples.

Results

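The genes described here are 8 genes of DNA mismatch repair and replication proofreading, namely MSH6, MSH3, MLH3, PMS2, EXO1, PCNA, POLE and POLD1, chosen by name from 15843 protein-coding genes whose strand was known. They were read in lists of ac4C peaks from SW620, an established human colorectal cancer cell line. Acetylated RNA immunoprecipitation sequencing (acRIP-seq) recovers RNA fragments with an antibody against N4-acetylcytidine (ac4C), a modification that the acetyltransferase NAT10 places on cytidines. The groups were 3 libraries from control cells (label shControl, genotype WT) and 3 libraries from cells with a short hairpin RNA against NAT10 (label shNAT10, genotype NAT10 knockdown). Both lines carried a lentiviral hairpin construct, and which of the study's NAT10 hairpins was used for these libraries, and whether the replicates were separate cultures, were not given in the sources used here, so any p-value measures the spread between these libraries, which may be technical. A peak was assigned to a gene when its midpoint lay in the gene's span on the same strand, in the GRCh38 build.

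Mismatch repair corrects bases that are mispaired during replication. MutS homologs such as MSH6 and MSH3 take part in recognizing the mismatch, MutL homologs such as PMS2 and MLH3 act after them, EXO1 removes the stretch of new strand that holds the error, and a replicative polymerase held on DNA by the PCNA clamp fills the gap. POLE and POLD1 encode the catalytic subunits of DNA polymerases epsilon and delta, whose own exonuclease removes most wrong bases first. Loss of mismatch repair gives colorectal tumours with unstable microsatellites, and mutations in the proofreading domains of POLE or POLD1 give tumours with very many substitutions.

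The lists held between 17877 and 28752 peaks per library, the longest being knockdown replicate 1. The means were 20308 ± 2199 in control libraries and 21892 ± 5970 after knockdown (mean ± SD, n = 3 each). They carry no read counts, so depth is unknown and a missing peak does not show that a transcript was unmodified or unexpressed. Peaks in the NAT10 gene numbered 1, 0 and 2 in control libraries and 2, 0 and 1 after knockdown, which does not measure the knockdown. As a check of the cell line label, and counted on either strand, 7 of 10 colorectal epithelial markers had a peak in some library and 4 had peaks in all 6 (EPCAM, KRT8, CDX2 and VIL1), whereas KRT18, KRT20 and CDX1 had none. CEACAM5, among the same markers and picked out after its values were seen, had 2, 1 and 3 peaks in control libraries and 0 in each knockdown library. Its two-sided exact permutation p was 0.1, the lower limit of this design. Of the 9898 genes with a peak, 0.374% likewise had one in every control and in no knockdown library. CDX2 moved the other way, with 2, 2 and 3 peaks in control libraries and 4, 3 and 3 after knockdown (exact permutation test, two-sided p = 0.3). The means of KRT8 and of LGALS4 were equal in the groups. Of 7 leukocyte, endothelial and stromal markers, 2 had a peak in some library and 0 in all 6. The summed peaks of the epithelial markers were between 11 and 16 in control libraries and between 9 and 17 after knockdown.

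The sequences that matter most here are those at annotated transcript starts lying under peaks of these genes. Each run below gives the 30 bases from such a start, 5′ to 3′ on the gene's plus strand, from the RefSeq table of GRCh38.p14, and capitals mark an ATG at its beginning.
POLD1 (chr19:50398852-50398881): ATGgatggcaagcggcggccaggcccaggg
MSH6 (chr2:47783145-47783174): agatttcccgccagcaggagccgcgcggta
EXO1 (chr1:241848731-241848760): gcctaaggaaacgtgtcgtctggaatgggc
The POLD1 start under a peak in all 6 libraries thus begins with ATG, the letters of an initiation codon, although coding positions were not read here. It lies 4 bases downstream of the 5′ edge of that peak. That edge is 14525 bases inside the gene, and the peak sits at 43.4% of the gene span. The first 30 bases from the annotated start at the 5′ end of POLD1 (50384323) lay under a peak in 0 libraries. The MSH6 start lay inside a peak in 3 libraries, and the EXO1 start coincided with the 5′ edge of a peak in 1 library. Cytidines spaced by a pair of other bases have been described at ac4C sites, so a CNN triplet repeated 4 times in a row (C for cytosine, N for any base) was searched in the 50 bases after each annotated start on the sense strand. It occurred after 4 of the 15 starts listed for the 8 genes and after 25.7% of all 35116 starts (50.1% when either strand was allowed). It was present after the EXO1 start shown and absent after the POLD1 and MSH6 starts shown, which says only that those letters are not in these windows.

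Among the 8 genes, ac4C peaks were concentrated in the polymerase genes. POLD1 had 27 peaks and POLE 19 over the 6 libraries, together 46 of the 58 peaks (79.3%), and only these members had peaks in all 6 libraries. The other 6 genes held 12 peaks, and PMS2 and PCNA held none. Of the 15843 genes, 31% had peaks in all 6 libraries, 9.47% in 1 library and 37.5% in none. Knockdown did not separate from control for any of the 6 members with a peak, and PMS2 and PCNA, without peaks, could not be compared. Most genes with a peak were not called either, so this does not set the members apart. By peak number, 0 of the 6 members with a peak had groups that did not overlap, against 2.27% of the 9898 genes with a peak (0.697% with more peaks in control and 1.58% with more after knockdown). By presence in all libraries of a group and in none of the other, 0 members were called, against 0.768% of those genes (0.374% only in control and 0.394% only after knockdown). The two-sided exact permutation p for the number of peaks was 1 for each of the 6 members with a peak, where the smallest p that 3 against 3 libraries allow is 0.1. No gene of the whole table reached an unadjusted p under 0.05, which this design cannot give.

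The mismatch recognition genes had fewer peaks than the polymerase genes. Of the genes with a peak, 51.1% had a higher mean number than MSH6 and 71.8% a higher one than MSH3. In MSH6, on chromosome 2, peaks numbered 1, 2 and 0 in control libraries and 2, 0 and 1 after knockdown, with a mean of 1.0 ± 1.0 (SD, n = 3) in each group. The groups overlapped fully. A 412-base peak from 47783082 to 47783493, covering the annotated gene start at 47783145, was listed with identical edges in control replicates 1 and 2 and in knockdown replicate 1. Scores were compared as percentiles, the rank of a peak among all peaks of its own library, because the score has no stated scale between libraries. This MSH6 peak stood at the 84.8 and 82.5 percentile in the control libraries and at 84.1 in the knockdown library, so it was a high-ranking peak wherever it was listed. It was absent from the list of control replicate 3 and of knockdown replicates 2 and 3 (two-sided Fisher's exact test of 2 control against 1 knockdown libraries, p = 1). A 170-base peak near the middle of the gene, from 47795894 to 47796063, was listed in control replicate 2 and knockdown replicate 3 at the 28.7 and 8.64 percentile. The remaining peak, 729 bases long, was found in knockdown replicate 1 at the 6.42 percentile.

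MSH3, which spans 222 kb on the plus strand of chromosome 5, had 0, 1 and 0 peaks in control libraries and 1, 0 and 1 after knockdown. The means were 0.33 ± 0.58 and 0.67 ± 0.58 (SD, n = 3 each), and the groups overlapped. These 3 peaks lay at 3 different places, at 54.5%, 98.3% and 0.819% of the span from the 5′ end, and none ranked above the 22.2 percentile. How the submitters assigned strand was not given in the sources used here, and in each library at least 99% of the peaks that lay in the span of a single gene were on that gene's strand.

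**Figure D1:**
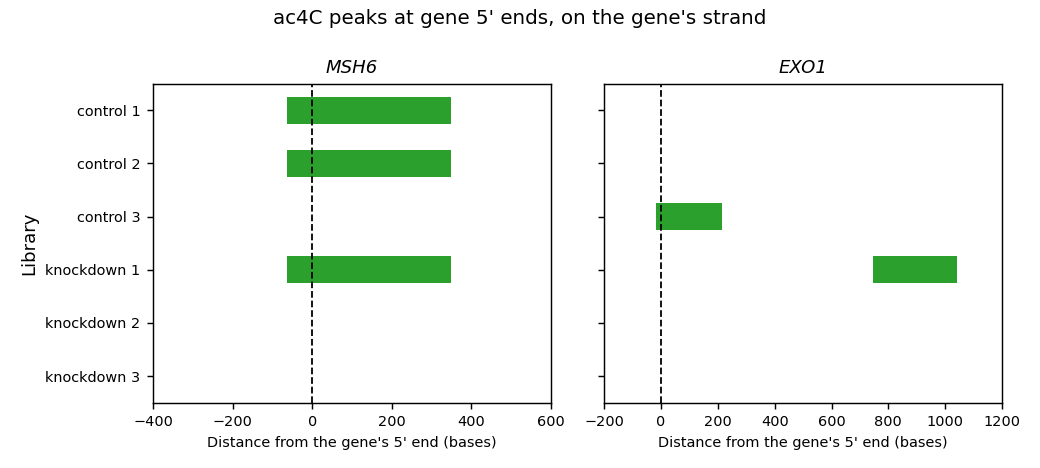
Extent of ac4C peaks on the gene's strand around the 5′ ends of MSH6 and EXO1 in each library (rows), as distance in bases from the annotated gene start (dashed line). The MSH6 peak is listed in 3 libraries with the same edges, and the EXO1 peaks lie at different places in 2 libraries.

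Of the MutL genes, MLH3, on the minus strand of chromosome 14, had a single 53-base peak from 75038360 to 75038412, in control replicate 3, at the 1.34 percentile. PMS2, on the minus strand of chromosome 7, had none in any library. PMS2 has near-identical pseudogene copies, and reads that map to several copies may have been split or dropped before peaks were called. Whether this happened was not tested, so the PMS2 count is uncertain. EXO1 had 1 peak in control replicate 3, from 241847967 to 241848200 at the 44.4 percentile, and 1 in knockdown replicate 1, from 241848731 to 241849027 at the 67.5 percentile. Both lay near the 5′ end of the gene, and they did not overlap each other. PCNA, which has processed pseudogenes in the genome, had no peak in any library.

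POLE, on the minus strand of chromosome 12, had 3, 2 and 4 peaks in control libraries and 5, 2 and 3 after knockdown, with means of 3.0 ± 1.0 (SD, n = 3) and 3.33 ± 1.53 (SD, n = 3). The highest number was that of knockdown replicate 1, and the groups overlapped. Merging peaks that shared at least 1 base across libraries gave 8 regions in the gene, numbered here from the 5′ end. Region 2, from 132667503 to 132667648, was the only POLE region with a peak in all 6 libraries. Region 1, from 132668356 to 132668502, lay 707 bases upstream of it and was listed in all but control replicate 2. These peaks were 146 and 147 bases long, had identical edges in every library that listed them, and sat at 31.1% and 29.7% of the gene span. Of the other 6 POLE regions, 4 were found in a single library and 2 in a control and a knockdown library each.

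The highest POLE peak did not differ in rank between the groups beyond the spread of the control libraries. Region 2 stood at the 55.5, 50.3 and 86.8 percentile in control and at 74.1, 66 and 85.9 in knockdown libraries. The means were 64.2 ± 19.7 and 75.3 ± 10 (SD, n = 3 each), a difference of 11.2 percentile points (exact permutation test, two-sided p = 0.5; 0.887 after Benjamini-Hochberg adjustment over genes). Control replicate 3 was as high as the highest knockdown library, so the groups overlapped. Region 1 stood at 22.4 and 81.6 in control replicates 1 and 3 and at 61.2, 48.3 and 72.3 in knockdown libraries. Control replicate 3 ranked highest and control replicate 1 lowest of the 5 libraries that listed it. Without control replicate 3, the region 2 percentiles of control lay wholly below those of knockdown libraries. Leaving out that library made such calls common. Groups then did not overlap for 3393 regions in all (1604 with knockdown higher), against 1014 (642) with all 6 libraries. The region 2 difference without control replicate 3 was 22.4 points (exact permutation test, two-sided p = 0.2). It was 4.23 points without control replicate 2 and 5.86 without knockdown replicate 3, and 19.9 (exact permutation test, two-sided p = 0.3) with the median of the POLE peaks in place of the highest.

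POLD1, on the plus strand of chromosome 19, had more peaks than any other member. The numbers were 4, 5 and 5 in control libraries and 5, 3 and 5 after knockdown, with means of 4.67 ± 0.58 and 4.33 ± 1.15 (SD, n = 3 each). The low value was that of knockdown replicate 2, which was also the shortest list. Of the 9898 genes with a peak, 6.94% had a higher mean number than POLD1 and 13.1% a higher one than POLE. Relative to length, POLD1 had 1.34 peaks per 10 kb of gene span and library on average, and POLE 0.498.

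POLD1 had 8 merged regions, and 4 of them were found in at least 5 libraries with identical edges. Region 3, from 50398848 to 50399053, is the peak that begins 4 bases before the ATG shown above. Its score was 3100 in all 6 libraries, a value at or above which 7.85% to 14.1% of the peaks of a library lay, so differences among such peaks cannot be read and its percentile only reflects how many peaks share that score. Region 4, from 50406983 to 50407174, stood at the 57.7, 73.7 and 56.9 percentile in control and at 34.3, 74 and 73.6 in knockdown libraries. The lowest of these was knockdown replicate 1 and the means were 62.8 ± 9.45 and 60.6 ± 22.8 (SD, n = 3 each; exact permutation test, two-sided p = 0.9). Region 5, from 50408707 to 50408901, was absent from control replicate 1. It stood at 68.4 and 84 in the other control libraries and at 92.7, 81.3 and 79.9 in knockdown libraries. The 92.7, of knockdown replicate 1, is again at the shared score of 3100 and only reflects how many peaks share it. Region 6, from 50413742 to 50413879, was absent from knockdown replicate 2. It stood at 28.7, 60.2 and 38.2 in control and at 67 and 59.2 in the other knockdown libraries, so that here too the groups overlapped.

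**Figure D2:**
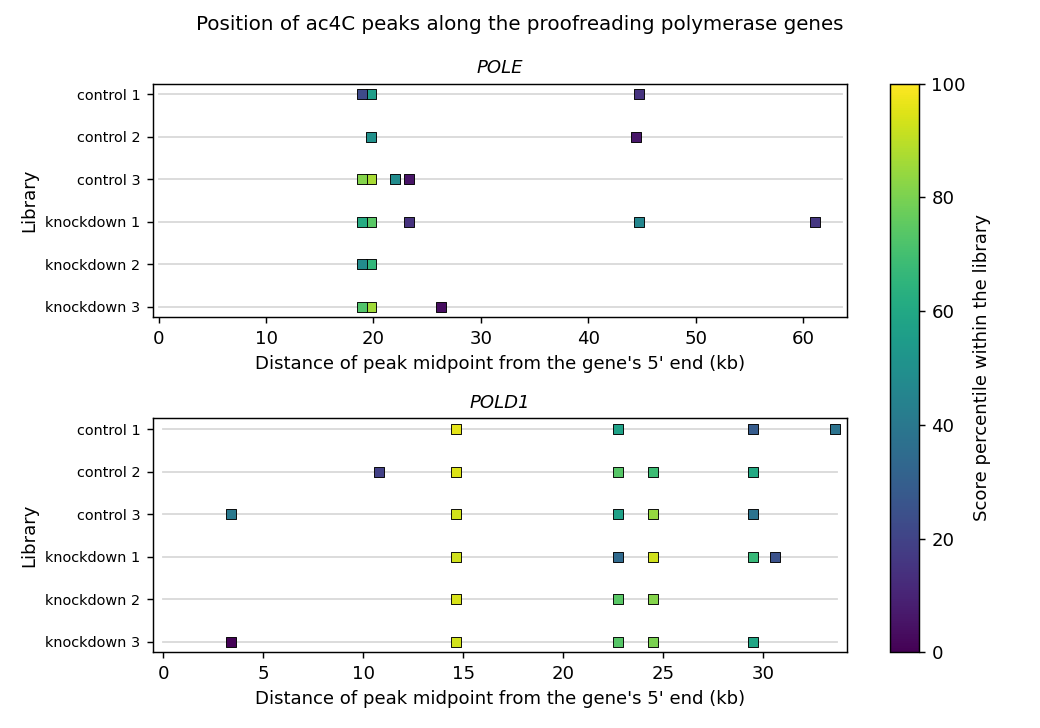
Midpoints of ac4C peaks along POLE and POLD1 in each library, as distance from the 5′ end of the gene in kb, coloured by the percentile of the peak's score within its library. A pair of POLE regions and 4 POLD1 regions recur at the same position in at least 5 libraries, and the other peaks are scattered and mostly rank low.

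**Figure D3:**
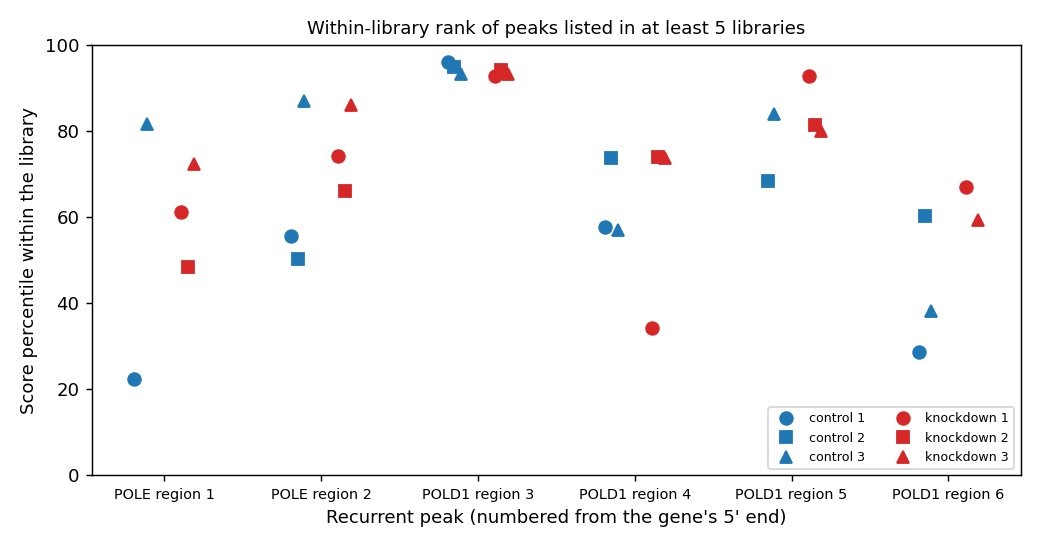
Score percentile of the 6 polymerase peaks that were listed in at least 5 libraries, with control libraries in blue, knockdown libraries in red and the symbol giving the replicate number. Blue and red points overlap in every region. POLD1 region 3 sits at the shared score of 3100, as does region 5 in knockdown replicate 1.

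Over all 8 genes there were 25 merged regions. Of these, 14 (56%) were found in a single library, with 7 in control libraries and 7 after knockdown, 5 of the latter in knockdown replicate 1. Only 3 regions (12%) were found in all 6 libraries. Of all 41755 merged regions, including those outside genes, 38.7% were found in 1 library and 22% in all 6. The 14 peaks found in 1 library had a median percentile of 17.5, against 73.6 for the 33 peaks of regions found in 5 or 6 libraries. All 6 recurrent regions had identical edges in every library, and of the 9195 regions found in all 6 libraries 68.9% did. None of the 25 regions was present in all libraries of a group and absent from the other, which 1.16% of all regions were (0.34% only in control and 0.819% only after knockdown). Of the 3 member regions with a peak in all 6 libraries, 0 had percentiles that did not overlap between the groups, against 11% of such regions (4.05% with control higher and 6.98% with knockdown higher). For the highest peak of each gene, 0 of the 2 members with a peak in all 6 libraries had groups that did not overlap. This was so for 9.36% of the 4906 genes with a peak in all 6 libraries (4.61% with control higher and 4.75% with knockdown higher). The highest POLD1 peak and POLD1 region 3 are the same peak, at the shared score of 3100. Its percentile only reflects how many peaks share that score, so neither comparison can be read for it. Among highest peaks, only that of POLE could be read.

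Per 10000 peaks of a library, the 8 genes held 4.39, 4.42 and 5.48 peaks in control and 4.87, 2.8 and 5.25 in knockdown libraries. Knockdown replicate 2 was the low one, with 5 peaks, all in POLE and POLD1. No other gene had the same numbers of peaks per library as POLE. AK1 alone had those of POLD1, and its highest peak differed from that of POLD1 by 5.68 percentile points on average over the 6 libraries. The highest POLD1 peak stood at the shared score of 3100 in each library. Its part in that distance therefore only reflects how many peaks share that score.

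The same reading was made for 28 further genes of mismatch repair and of the DNA synthesis that completes it, of which 23 had a known strand. Of these, 17 had a peak in some library and 9 in all 6. Groups did not overlap in peak number for 2 of the 17 (11.8%, against 2.27% of all genes with a peak), both with more peaks after knockdown, and RFC3 was also called by presence. The median difference was 0 peaks, as it was over all genes. RFC3, a subunit of the clamp loader that places PCNA on DNA, had 0 peaks in each control and 1 in each knockdown library (p = 0.1 by the exact permutation test, the lower limit of this design; adjusted p = 1 over all genes). Its peak on chromosome 13 ended at 33818265 and covered the annotated start at 33818149, and it stood at the 47.4, 19.3 and 18.5 percentile, so it ranked below the middle of the list in each of these libraries. SETD2, the histone methyltransferase whose mark is bound by MSH6, had 1 peak in each control library and 3, 2 and 2 in knockdown libraries (exact permutation test, two-sided p = 0.1; adjusted p = 1). A 149-base merged region near its 5′ end had a peak in all 6 libraries. The peak found in each knockdown library and in no control library was 16 bases long, from 47126648 to 47126663 on chromosome 3, and stood at the 74.3, 22.5 and 19.7 percentile.

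Among the polymerase subunits and ligases, LIG1, which seals the repaired strand, had the most peaks, with 7, 10 and 8 in control libraries and 9, 11 and 8 after knockdown. RFC2 had 2 peaks and POLE3 1 peak in every library. POLD2, the partner subunit of POLD1, had 2, 1 and 0 peaks in control libraries and none after knockdown (exact permutation test, two-sided p = 0.4). PMS1, MSH4, POLE2, CHTF18, CHTF8 and FEN1 had none in any library. For the other 5 genes only counts without strand were made, and POLD3 had 2 peaks in every library.

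**Figure D4:**
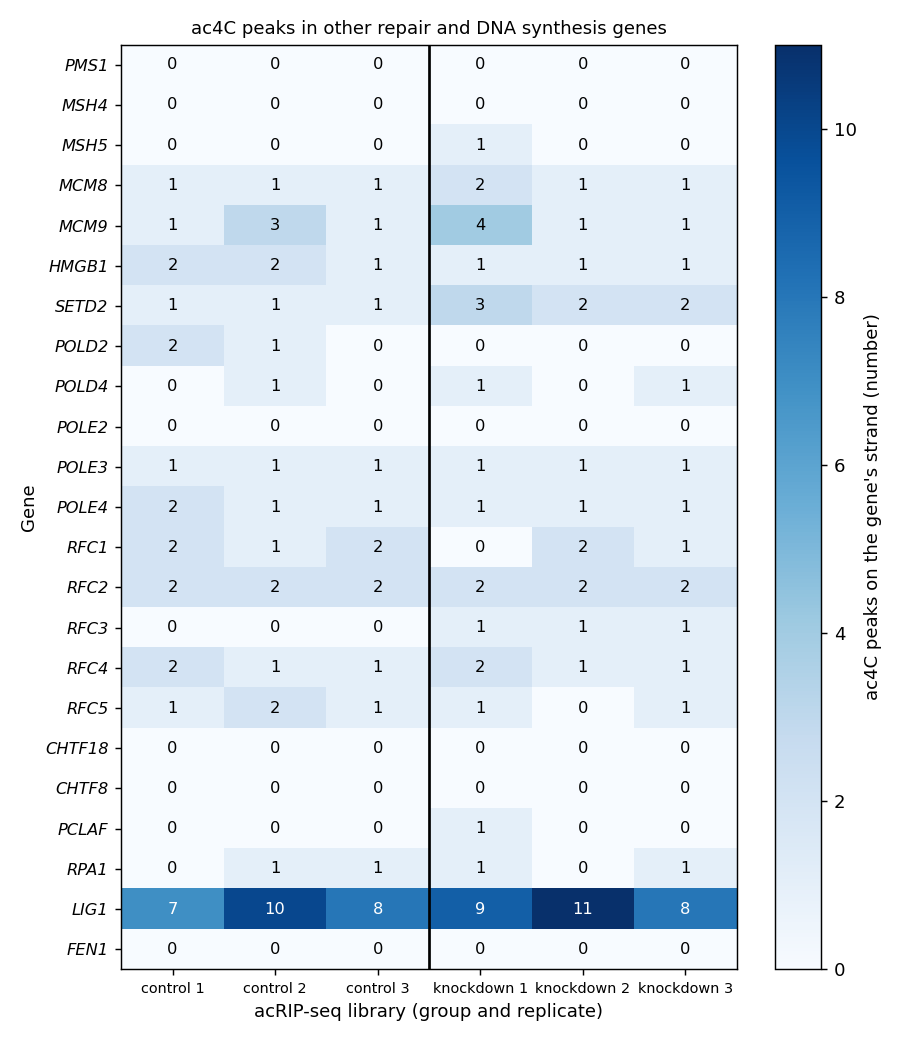
Number of ac4C peaks per library in 23 other genes of mismatch repair and repair synthesis, drawn as for the 8 genes, with control libraries left of the line. LIG1 has between 7 and 11 peaks, and RFC3 has 1 peak in each knockdown library and 0 in each control library.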

How the data were processed

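Peak lists of 6 acRIP-seq libraries were used; 6 input libraries of the 12 samples have no list among the files used here. The authors deposited 1 list per library, without pooling replicates, with a strand and a score per peak, and peak names of the MACS type. The submitters' processing notes name GRCh38; aligner, caller settings and depth are not given in the sources used here. The score, at least 50, was used only as a rank within a library (ties at mean rank). Genes, spans and starts came from RefSeq GRCh38.p14 tables; strand was known for 15843 of 20056 protein-coding genes, all 8 members included. Peaks overlapping by at least 1 base on a strand were merged. Peak numbers and percentiles were compared by two-sided exact permutation tests with Benjamini-Hochberg adjustment over all genes or regions, and presence by Fisher's exact test. The genes named were the 8 members, called genes of the fixed list of 28 and, for likeness, genes with equal peak numbers in every library; other genes of that list, and CEACAM5, were named after their values were seen, and NAT10 and fixed cell type markers as checks. Members and lists were chosen with earlier results of these data known. Some items are not reported here. The code was tested on simulated lists with planted genes. Python 3.11.15, numpy 2.4.6, pandas 2.3.3, scipy 1.17.1 and matplotlib 3.10.9 were used.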

Additional observations from a re-analysis of the deposited data

How the results depend on the processing

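When each library was restricted to its highest-scored 50% or to its 17877 highest-scored peaks, strand was ignored, any overlap with a span was counted, or peaks that lay in several genes were dropped, 0 members were called by number, presence or highest percentile. Over all genes or regions, the highest-scored 50% gave 145 against 225 genes by number, 256 against 459 by highest percentile and 260 against 484 regions by presence. The cause was not tested. A difference of at least 2 libraries, a looser criterion, left 0 members called and gave 766 against 76 genes by presence. Equal peak numbers split the genes called by number into 110 with more control and 114 with more knockdown peaks, against 69 and 156, and those by presence into 62 and 29, against 37 and 39. They gave -0.33 in place of 0.33 for the MSH3 difference in peaks (knockdown minus control), or -33.3 in place of 33.3 percentage points of libraries. The POLD1 difference went from -0.33 to 0.33 peaks with the highest-scored 50% and to -1.0 (exact permutation test, p = 0.3) with equal peak numbers, and its percentile difference from -1.36 to 16.3 (two-sided exact permutation test, p = 0.2) with the median of its peaks in place of the highest; the cause was not tested.

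Leaving out 1 library, which makes non-overlap easier, gave 453 to 629 genes by number, 148 to 261 by presence, 755 to 1653 by percentile, 936 to 1359 regions by presence and 1586 to 3393 by percentile. Members called ranged from 0 to 2 by highest percentile and from 0 to 2 by region percentile (POLE and POLD1 without control replicate 3, POLD1 without knockdown replicate 2), and were 0 otherwise. The POLD1 calls were of its peak at score 3100 and cannot be read. Shares of all genes or regions tested with 1 library left out are not given here, so these member counts have no rate beside them. List genes called ranged from 2 to 5, RFC3 and SETD2 in each case, up to 5 without control replicate 3 or knockdown replicate 1. The differences ranged from -0.67 to 0.33 peaks for POLD1, from -0.5 to 1 for POLE, and from -8.82 to 11 percentile points for POLD1 region 4, negative except without control replicate 2 (3.31) and without knockdown replicate 1 (11).

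With the replicate number as a block (all 3 pairs move 1 way), 412 of 9898 genes were called by number. Highest percentiles called 1541 of 4906 genes (1 of 2 members), and region percentiles 2988 of 9195 (1 of 3). Both member calls are the POLD1 peak at score 3100 (difference -1.36, p = 0.25 by the exact sign-flip test, its lower limit). The numbers do not pair the libraries: deviations of same-numbered libraries correlated at -0.175, -0.104 and 0.00287. Unknown depth limits every statement on a missing peak.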
